A study of Mus musculus with 6 samples.

Results

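The 10 genes described here encode the receptors, bridging protein and scavenger receptors with which macrophages bind dead cells, lipoproteins and other cargo. They were taken from a list of names, Mertk, Axl, Gas6, Timd4, Marco, Msr1, Cd36, Stab1, Stab2 and Lrp1, and all 10 were found among the 54532 genes of the deposited files through their Ensembl identifiers. RNA of sorted cells from C57BL/6 mice (6 to 8 weeks old) was sequenced in 6 libraries, 1 per condition. Macrophages gave 4 libraries, those of WT mice without leukemia, of iron-loaded WT mice (WT/FE), of leukemic mice (MA9) and of iron-loaded leukemic mice (MA9/FE), and values of macrophages are given in this order throughout. The sorted leukemia cells gave the other 2 libraries, MA9 before MA9/FE. MA9 mice carried transplanted leukemia cells made by infecting c-kit+ BM cells with a retrovirus that drives the MLL-AF9 fusion gene and GFP. Iron loading (FE) was by iron dextran (25 mg/mL), injected into the peritoneum every other day, 6 times in all and 0.2 mL each, and the mice without FE received PBS by the same schedule. By the labels the macrophages came from spleen, but the study's methods describe BM macrophages gated as GFP- and by surface antigens, and this conflict was not settled here. The number of mice behind each library is not given in the sources used here, so the values have no replicate check.

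Efferocytosis is the clearance of dying cells. Phosphatidylserine exposed on the dying cell is bound either directly, by Timd4 and the stabilins Stab1 and Stab2, or through the bridging protein Gas6, which links it to the receptor tyrosine kinases Mertk and Axl. Scavenger receptors such as Marco, Msr1 and Cd36 take up modified lipoproteins, bacteria and cell debris, and Lrp1 is a large endocytic receptor with many ligands. In the spleen such genes are best known from resident macrophages, among them the red pulp macrophages that clear aged red cells and recycle their iron.

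The libraries held between 16085347 and 19518360 reads, recovered from the FPKM (reads scaled by exon length and by library depth). All 12 macrophage markers were at 1 FPKM or more in each of the 4 macrophage libraries, where they summed to between 640 and 1386 FPKM. In the leukemia cells 9 of the 12 were at 1 FPKM or more. Their sum there was 1297.5 and 1629 FPKM, of which Lyz2 made up 1017 and 1348, so the sum does not separate the 2 kinds of cell. Markers of B cells were high in the 4 macrophage libraries, at a sum of 1131 to 2015 FPKM over 8 genes, against 18.3 to 19.6 FPKM in the leukemia cells. T cell markers (7 genes) summed to 62.5 to 81.8 FPKM in the macrophage libraries and to 1.79 and 1.16 FPKM in the leukemia cells. The dendritic cell genes Flt3 and Clec9a were at 29.3 to 42.6 and 25.5 to 31.5 FPKM in the macrophage libraries. Flt3 was also at 12.7 and 22.0 FPKM in the leukemia cells. The part of other cells in the members' values was not tested. Neutrophil markers (9 genes) summed to 3.70, 2.62, 1788 and 905 FPKM in the 4 macrophage libraries, so that those of leukemic mice stood apart. Monocyte markers (6 genes) went the same way, at 17.1, 17.3, 162 and 100 FPKM. Endothelial cells are another known source of Stab1 and Stab2, and of the 11 endothelial markers Lyve1 was at 0 to 0.02 FPKM and Cdh5 at 0.46 to 0.98 FPKM in the macrophage libraries. The sum of the endothelial list lay between 33.4 and 36.7 FPKM there, of which Pecam1, a gene also high in the leukemia cells, made up 20.8 to 30.2 FPKM. In MA9 against WT macrophages 8 of 9 tested endothelial markers lay above 0, with a median log2 change of 0.37, and Eng was the 1 called (2.0 and 5.42 FPKM). In the iron pairs 2 and 1 of 9 lay above 0. Of 9 stromal markers, none reached 1 FPKM in a macrophage library and Dcn and Lum were at 0 in all 6 libraries. In bulk RNA fewer cells of a type and less RNA per cell cannot be told apart.

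The tyrosine kinase receptors were among the better expressed of the 10 genes. Axl (ENSMUSG00000002602, GRCm38 chr7:25757273-25788705, minus strand) was measured at 23.0 FPKM in WT and 41.0 in WT/FE macrophages, at 20.9 and 40.5 FPKM in their MA9 and MA9/FE counterparts, and at 1.94 and 1.48 FPKM in the leukemia cells. Mertk (ENSMUSG00000014361, chr2:128698956-128802894, plus strand) was at 8.38, 20.04, 8.68 and 15.7 FPKM in the same 4 macrophage libraries and at 0.241 and 0.245 FPKM in the leukemia libraries. Both genes were high in the 2 iron libraries, lower in the 2 macrophage libraries without iron and lowest in leukemia cells. Their ligand Gas6 (ENSMUSG00000031451, chr8:13465374-13494490, minus strand) was scarce, with 0.38, 0.63, 0.67 and 1.90 FPKM in the macrophages, 0.11 in MA9 leukemia cells and 0 of 17852023 reads in MA9/FE leukemia cells. A count of 0 allows up to 3 reads, or 0.066 FPKM, of Gas6 there, and the exact 95% Poisson interval, which is wider, reaches 0.081 FPKM. The gene overlaps Tmem255b on the opposite strand, and the sources used here do not say whether strand was used in counting.

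The direct phosphatidylserine receptors split into a pair with the same pattern and a gene that differed. Timd4 (ENSMUSG00000055546, chr11:46810800-46844332, plus strand) was at 2.24, 4.79, 1.84 and 4.81 FPKM in the macrophages and at 0.10 and 0.08 FPKM (4 and 3 reads) in the leukemia cells. Stab2 (ENSMUSG00000035459, chr10:86841198-87008025, minus strand) was at 2.405, 4.76, 2.47 and 4.50 FPKM in the macrophages and at 0.30 and 0.47 FPKM in the leukemia cells. For both, the 2 iron libraries did not differ beyond counting error and stood above the 2 macrophage libraries without iron. Stab1 (ENSMUSG00000042286, chr14:31139013-31168641, minus strand), the relative of Stab2, ran the other way, with 0.12 to 0.18 FPKM (20 to 30 reads) in the macrophages and 0.905 and 1.26 FPKM (169 and 231 reads) in the leukemia cells.

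Among the scavenger receptors Cd36 was the most abundant. Cd36 (ENSMUSG00000002944, chr5:17781690-17888801, minus strand), a receptor for fatty acids and oxidized lipoproteins, was at 22.6, 21.4, 28.1 and 25.5 FPKM in the macrophages and at 0.09 and 0.02 FPKM (6 reads and 1 read) in the leukemia cells. Marco (ENSMUSG00000026390, chr1:120474538-120505024, minus strand), a receptor for bacteria and particles, was at 3.57, 5.69, 2.2 and 11.2 FPKM, lowest in MA9 and highest in MA9/FE macrophages, and was at 0.20 and 0.815 FPKM in the leukemia cells. Msr1 (ENSMUSG00000025044, chr8:39581685-39642673, minus strand), the class A scavenger receptor, was at 0.30 to 0.53 FPKM (37 to 56 reads) in the macrophages and at 0.77 and 0.88 FPKM in the leukemia cells. Lrp1 (ENSMUSG00000040249, chr10:127538161-127621148, minus strand) was at 8.39, 17.4, 11.4 and 11.6 FPKM in the macrophages and at 8.46 and 11.8 FPKM in the leukemia cells, and is the only one of the 10 genes whose levels in the 2 kinds of cell overlapped.

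**Figure D1:**
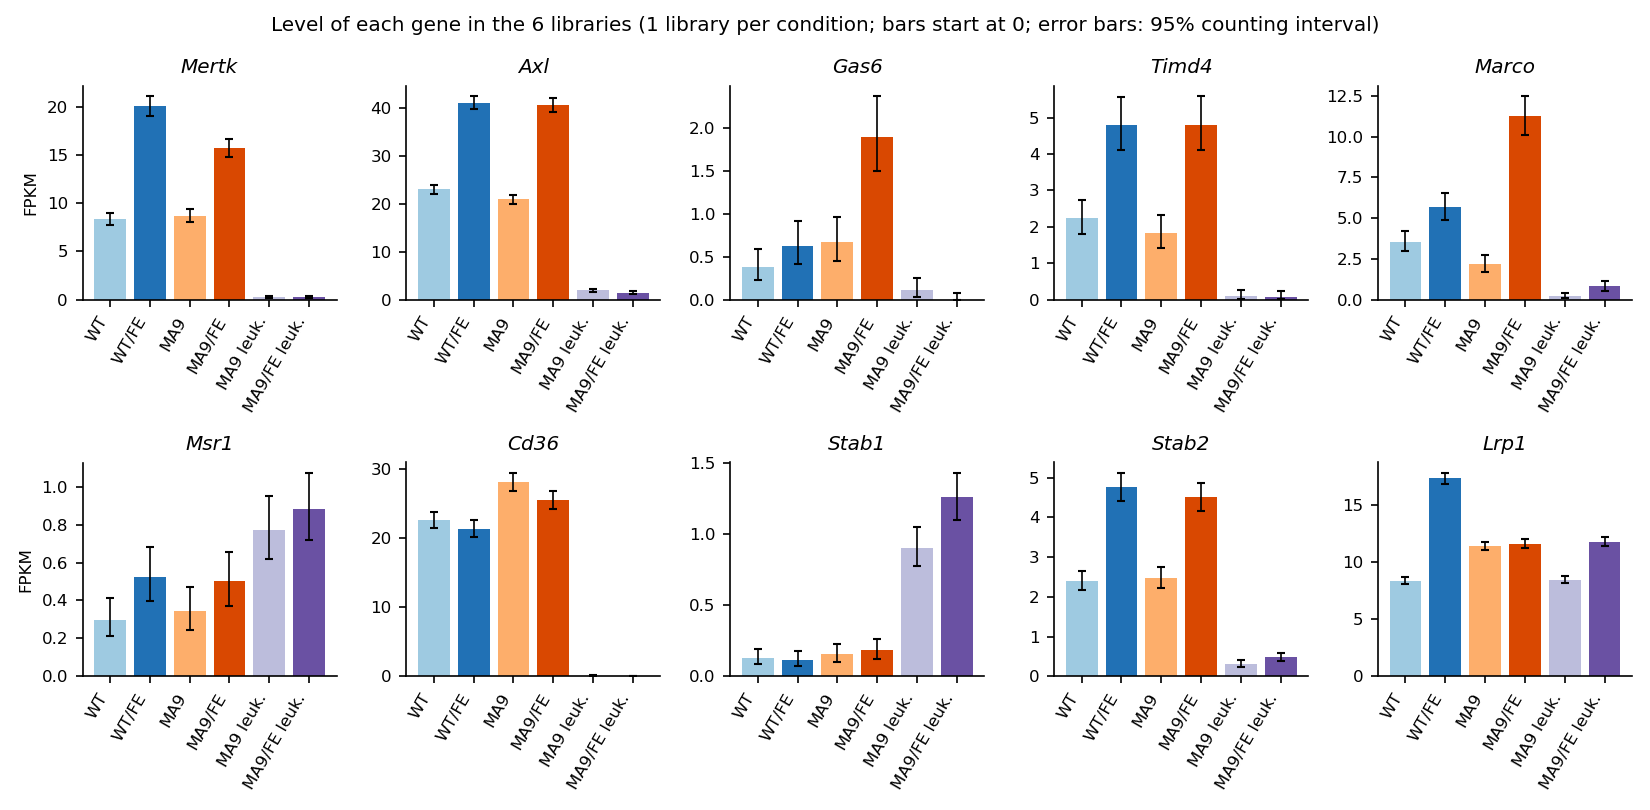
FPKM of each of the 10 genes (vertical axes, from 0, a scale for each gene) in each of the 4 macrophage and 2 leukemia cell libraries. Bars are single libraries and error bars are exact 95% Poisson intervals of the reads, which cover counting error only. Mertk, Axl, Timd4 and Stab2 stand higher in both iron macrophage libraries than in both without iron.

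Ordered by FPKM, which is a level per length of exon, the WT macrophages ran from Axl (23.0) and Cd36 (22.6) through Lrp1 (8.39), Mertk (8.38), Marco (3.57), Stab2 (2.405) and Timd4 (2.24) to Gas6 (0.38), Msr1 (0.30) and Stab1 (0.13). The counting intervals of the neighbours Axl and Cd36 overlapped, as did those of Lrp1 and Mertk, of Stab2 and Timd4, and of Gas6 and Msr1. In MA9 leukemia cells the order was Lrp1 (8.46), Axl (1.94), Stab1 (0.905) and Msr1 (0.77), with the other 6 genes between 0.09 (Cd36) and 0.30 (Stab2).

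Iron without leukemia was examined by setting WT/FE against WT macrophages. Changes are given as the log2 change of FPKM + 1 after TMM scaling (trimmed mean of M values), a scale that understates the change of genes near or under 1 FPKM, and a gene was called at a fold of 2 on this scale. Mertk was higher by 1.16 and was the only 1 of the 10 genes called, against 0.728% of the 16754 genes tested that were called higher and 0.543% called lower. Lrp1 (0.96), Timd4 (0.83), Axl (0.80), Stab2 (0.75) and Marco (0.55) lay above 0 without a call. In reads, with TMM scaling and no pseudocount, the fold was 2.38 for Mertk (exact 95% counting interval 2.18 to 2.61), 2.13 for Timd4 (1.65 to 2.76), 2.06 for Lrp1 (1.97 to 2.16), 1.97 for Stab2 (1.74 to 2.23), 1.78 for Axl (1.68 to 1.87) and 1.59 for Marco (1.26 to 2.0). Those 6 differences exceeded counting error, as did Msr1 at 37 and 56 reads (1.75, 1.14 to 2.73). Gas6 (1.64, 0.88 to 3.13), Cd36 (0.94, 0.87 to 1.01) and Stab1 (0.89, 0.47 to 1.66) did not exceed it. The median log2 change of the 10 genes was 0.65 and that of all genes tested was -0.01.

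In the leukemic mice the same question was put to MA9/FE against MA9 macrophages, which share no library with the pair above. Marco (1.96) and Timd4 (1.06) were called higher, and no member was called lower, against 1.20% and 1.26% of the 16509 genes tested. Axl (0.96), Mertk (0.82), Gas6 (0.82) and Stab2 (0.69) lay above 0 without a call, and Lrp1 was at 0.06 and Cd36 at -0.10. The fold in reads was 5.24 for Marco (72 against 348 reads, interval 4.05 to 6.85), 2.91 for Gas6 (1.88 to 4.63), 2.68 for Timd4 (2.01 to 3.60), 1.99 for Axl (1.87 to 2.11), 1.87 for Stab2 (1.64 to 2.13) and 1.86 for Mertk (1.68 to 2.05). Lrp1 (1.04, 0.996 to 1.10), Msr1 (1.49, 0.96 to 2.35) and Stab1 (1.20, 0.69 to 2.11) did not exceed counting error, and Cd36 was at 0.93 (0.868 to 0.999). The median of the 10 genes was 0.75, against 0.01 for all genes tested. Mertk, Axl, Timd4, Stab2 and Marco were thus beyond counting error in both pairs, Lrp1 and Msr1 in the WT pair, and Gas6 and, downward, Cd36 in the MA9 pair. The difference between the 2 pairs could not be tested with 1 library each. With the trend of the change on exon length removed, Marco alone was called in the MA9 pair.

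**Figure D2:**
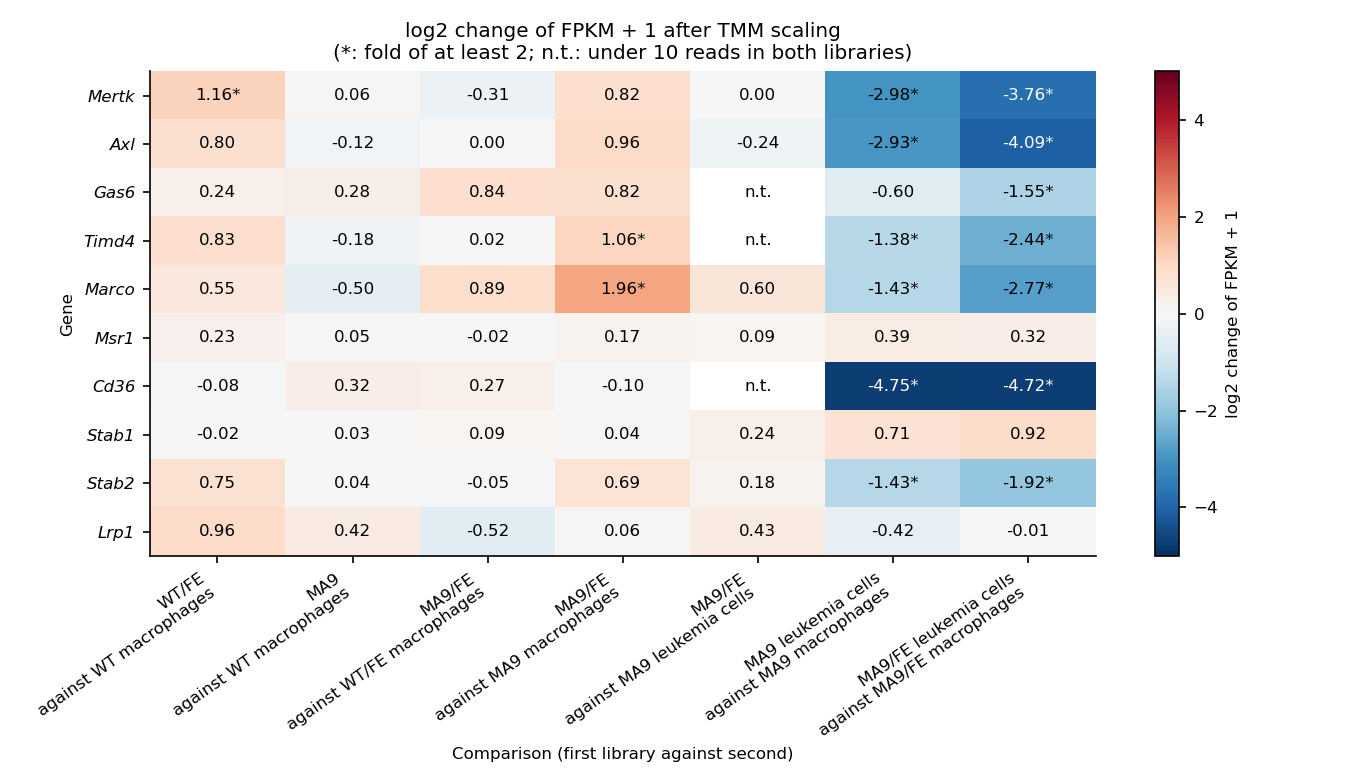
log2 change of FPKM + 1 of the 10 genes (rows) in the 7 comparisons (columns, first library against second), after TMM scaling, with the value printed in each cell and the color scale from -5 to 5. The 2 iron comparisons of macrophages are mostly above 0, the 2 leukemia comparisons lie near 0 for most genes, and the last 2 columns hold the largest values, down to -4.75 for Cd36.

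The 4 macrophage libraries were also fitted together with limma, with iron and leukemia as additive terms, so that each level of iron was seen in 2 libraries. The spread left by the additive model, with leukemia status differing between the 2 libraries of a level, is not a spread between mice. Limma also drew each gene's spread toward that of other genes of similar level. The median of the total degrees of freedom was 15.6, so most of an SE was borrowed from other genes. For a gene whose 2 iron changes differed, such as Marco or Lrp1, the SE can be smaller than its own libraries give. Of 16264 genes tested, 0.350% were called for iron at an adjusted p (Benjamini-Hochberg) at or under 0.05. Mertk was the 1 member called, with a log2 change of 0.98 ± 0.20 (SE) and adjusted p = 0.047 by limma. Marco (1.24 ± 0.28, limma adjusted p = 0.092), Axl (0.87 ± 0.19, limma adjusted p = 0.080), Timd4 (0.94 ± 0.23, limma adjusted p = 0.14) and Stab2 (0.71 ± 0.23, limma adjusted p = 0.43) had estimates above 0 and missed the threshold. Gas6 was at 0.52 ± 0.18 and Lrp1 at 0.50 ± 0.23, with limma adjusted p of 0.53 and 0.90. Msr1 (0.20 ± 0.14), Cd36 (-0.11 ± 0.19) and Stab1 (0.01 ± 0.11) had the smallest estimates. The call of Mertk was lost with the deposited FPKM unscaled (limma adjusted p = 0.062), with median of ratios scaling (0.061) and without a minimum of reads (1.0), and with a pseudocount of 0.1 Mertk, Axl (0.031) and Marco (0.014) were called.

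The genes that stood higher with iron in both pairs are shown here by the 250 bases before their start in RefSeq (GRCm38.p6), since members that move together invite a look at their promoters. The windows are chr2:128698665-128698914 on the plus strand for Mertk, chr7:25788734-25788983 on the minus strand for Axl, chr11:46810549-46810798 on the plus strand for Timd4, chr10:87007943-87008192 on the minus strand for Stab2 and chr1:120505025-120505274 on the minus strand for Marco. They are written 5′ to 3′ along the gene, and capitals mark a match to a searched motif.
Mertk: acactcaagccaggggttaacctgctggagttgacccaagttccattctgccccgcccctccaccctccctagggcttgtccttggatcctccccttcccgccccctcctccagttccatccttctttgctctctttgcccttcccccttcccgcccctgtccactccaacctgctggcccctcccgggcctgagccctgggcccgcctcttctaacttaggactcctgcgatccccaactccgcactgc
Axl: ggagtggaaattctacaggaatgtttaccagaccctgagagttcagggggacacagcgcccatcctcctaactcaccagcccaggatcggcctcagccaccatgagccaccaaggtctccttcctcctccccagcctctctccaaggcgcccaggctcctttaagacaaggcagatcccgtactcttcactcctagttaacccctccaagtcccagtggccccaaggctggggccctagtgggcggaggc
Timd4: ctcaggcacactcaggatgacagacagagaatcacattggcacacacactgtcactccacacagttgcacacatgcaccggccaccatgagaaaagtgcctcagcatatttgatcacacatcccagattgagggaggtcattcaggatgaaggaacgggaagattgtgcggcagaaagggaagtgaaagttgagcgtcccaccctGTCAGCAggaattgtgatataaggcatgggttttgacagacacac
Stab2: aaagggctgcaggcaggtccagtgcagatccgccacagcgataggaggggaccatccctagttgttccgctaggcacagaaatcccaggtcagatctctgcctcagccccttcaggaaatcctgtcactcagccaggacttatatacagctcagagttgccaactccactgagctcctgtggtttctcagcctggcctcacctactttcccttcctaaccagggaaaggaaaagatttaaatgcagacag
Marco: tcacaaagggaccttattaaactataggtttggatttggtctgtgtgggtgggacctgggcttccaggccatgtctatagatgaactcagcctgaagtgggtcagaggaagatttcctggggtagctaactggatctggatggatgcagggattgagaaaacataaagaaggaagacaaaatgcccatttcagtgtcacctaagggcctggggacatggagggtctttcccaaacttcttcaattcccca
The motifs were searched on both strands and chosen after the values were seen: TGCTGAC, a half-site of MAF family factors, GAGGAAGT, a site of the ETS factors PU.1 and Spi-C, and the DR4 element of LXR, a repeat with a spacer. The single match overlaps no other motif. TGCTGAC was found in 1 of the 9 member windows in the table, that of Timd4, on the opposite strand and starting 45 bases before the start, and in 3.81% of all 32851 windows. GAGGAAGT was found in 0 of 9 and in 2.44% of all windows, and the DR4 element in 0 of 9 and in 0.0152%. In G and C these 5 windows ranged from 47.6% (Marco) to 63.6% (Mertk). Msr1 has no entry.

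Most of the macrophage markers, and the red pulp markers, were higher with iron, as most members were. All 8 red pulp markers lay above 0 in both iron pairs, with a median log2 change of 0.86 in WT/FE against WT and 0.83 in MA9/FE against MA9 macrophages. The iron exporter Slc40a1 was at 18.8, 40.8, 17.6 and 49.4 FPKM, and the adhesion molecule Vcam1 at 19.9, 46.0, 18.8 and 44.5 FPKM. Both were called in both pairs, and also by limma for iron (adjusted p of 0.0095 and 0.011), whereas the other 6 red pulp markers were not called by limma. Spic, the factor that specifies red pulp macrophages, was at 17.0, 27.6, 14.7 and 31.8 FPKM. The 12 macrophage markers had medians of 0.75 and 0.71, and Cd63 of that list was lower in both pairs (-0.48 and -0.22). Limma called 5 of the 12 for iron, against 0.350% of all genes tested. Among them were the complement genes C1qa, C1qb and C1qc (limma adjusted p of 0.047, 0.048 and 0.021), of which C1qa and C1qb lay close to the threshold. B cell markers had a median of -0.03 in the WT pair and 0.57 in the MA9 pair, and neutrophil markers of -0.14 and -0.93. Erythroid markers had medians of 0.52 and 0.30 and went both ways. The hemoglobin gene Hba-a1 was called higher in both pairs (1.18 and 1.05). Below 0 in both pairs, without a call, lay Klf1 (-0.51 and -0.66) and Epor (-0.005 and -0.28). The part of the makeup of the sorted cells in the members' values was not tested.

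Set against the sum of the 8 red pulp markers, Axl and Stab2 kept a similar share. Axl amounted to 10.1%, 11.5%, 9.05% and 10.3% of that sum, and Stab2 to 1.06%, 1.34%, 1.07% and 1.14%. Timd4 varied more, at 0.98%, 1.35%, 0.80% and 1.22%. Mertk was at 3.68%, 5.63%, 3.76% and 3.99%, so that WT/FE stood apart from the other 3 libraries. Marco was at 1.57%, 1.60%, 0.95% and 2.85%, with the extremes in the 2 libraries of leukemic mice. Cd36 was lower in the iron libraries on this scale, at 9.91% and 6.00% without leukemia and 12.2% and 6.47% with it. Hmox1 was the largest part of the sum, at 104, 133, 104 and 167 FPKM of 228, 356, 231 and 394. The sum was itself higher in the iron libraries, so a share of it cannot be read as a level per cell. Relative to the median change of the red pulp list, an alternative chosen after the data were seen, Mertk was no longer called in the WT pair (0.31), and in the MA9 pair Marco remained (1.13) and Timd4 did not (0.23).

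**Figure D3:**
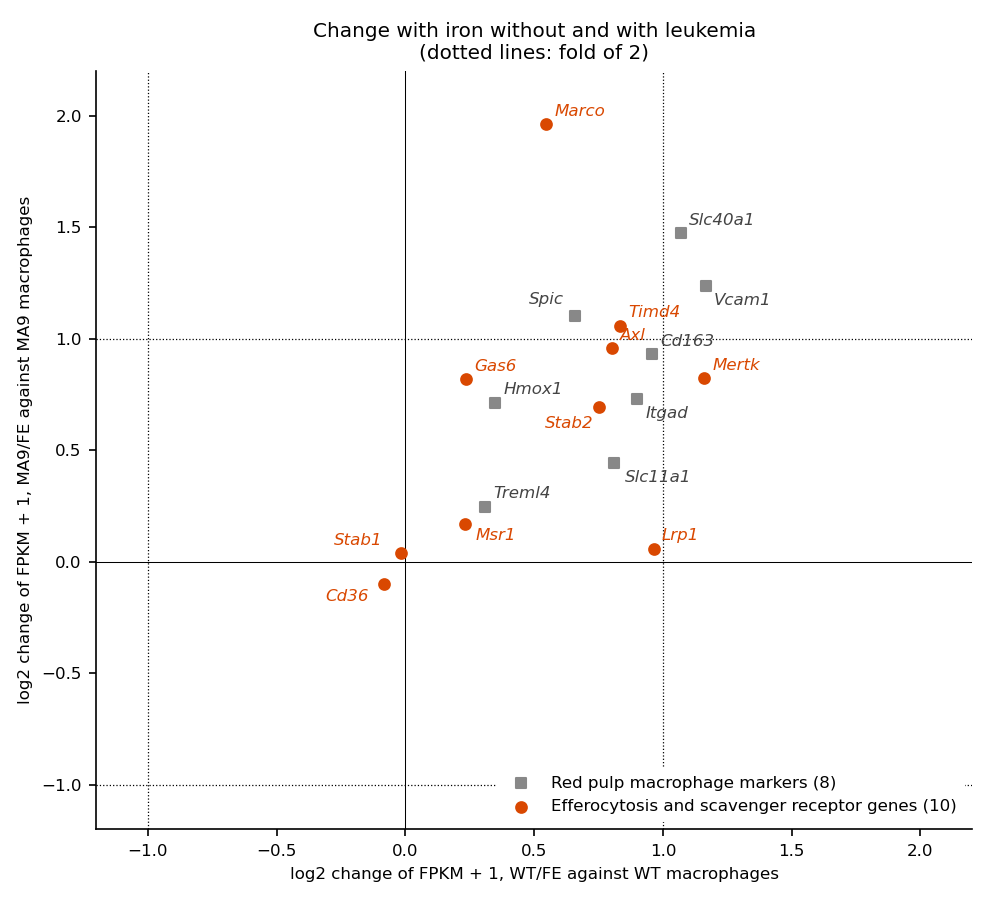
log2 change of FPKM + 1 with iron in WT macrophages (horizontal axis) and in MA9 macrophages (vertical axis) for the 10 genes (circles) and the 8 red pulp markers (squares), with dotted lines at a fold of 2. Mertk, Axl, Timd4 and Stab2 lie among the red pulp markers, Marco lies above them and Lrp1 to the right at 0.06 on the vertical axis, and Cd36 and Stab1 lie near 0 on both axes.

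**Figure D4:**
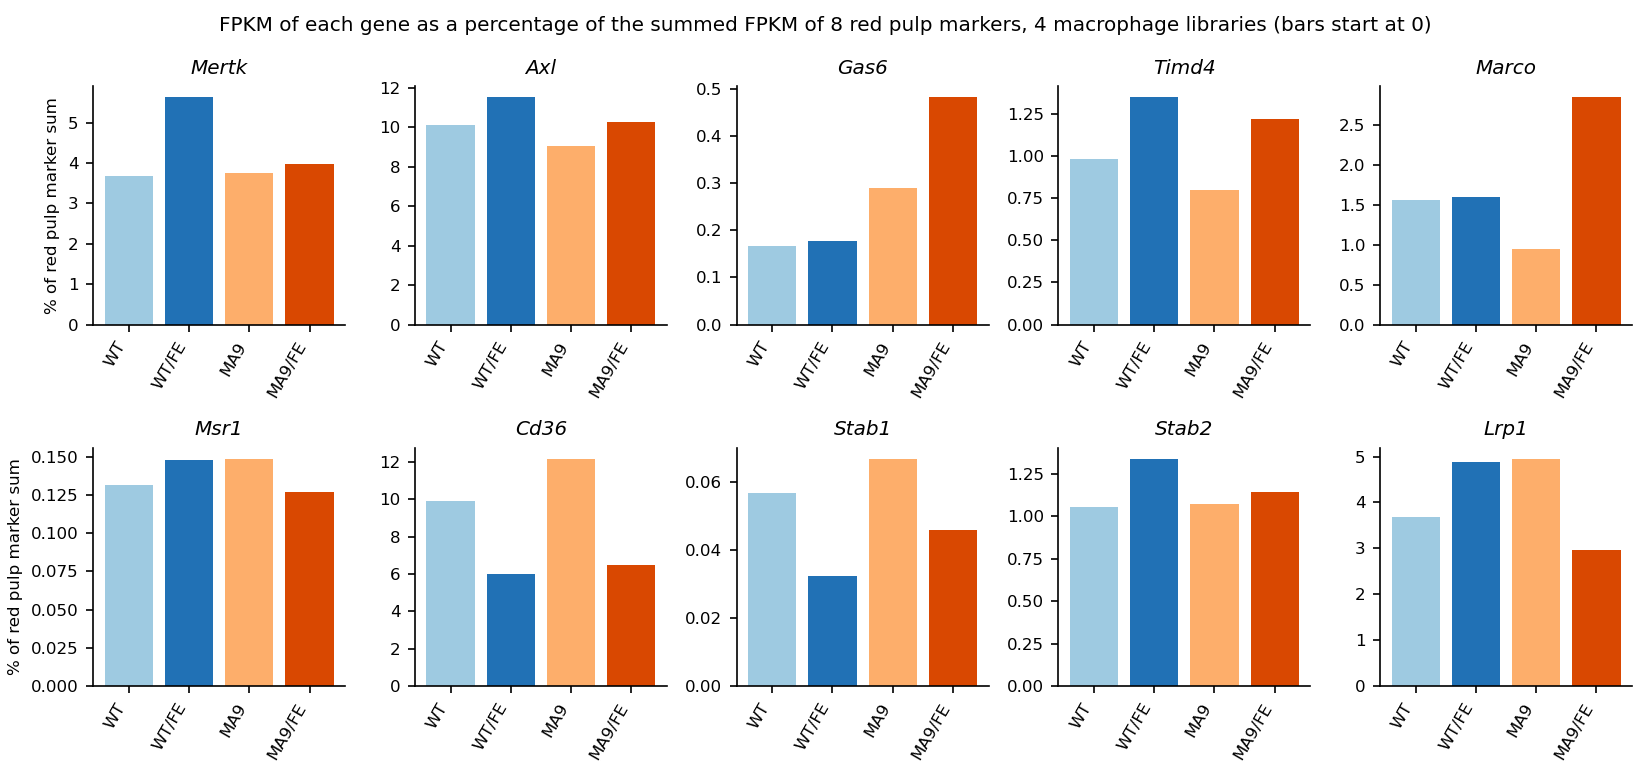
FPKM of each gene as a percentage of the summed FPKM of the 8 red pulp markers (vertical axes, from 0) in the 4 macrophage libraries, 1 bar per library. Axl ranges from 9.05% to 11.5% and Stab2 from 1.06% to 1.34%, whereas Cd36 is lower in both iron libraries.

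No member was called when leukemic mice were set against mice without leukemia. At the shares of all genes called given below, 0 calls among 10 genes is no result about them. In MA9 against WT macrophages 0 of 10 members were called in either direction, against 3.79% of 16925 genes called higher and 0.910% called lower, and the median change was 0.04. Marco was lower by 0.50 (134 against 72 reads, fold 0.62, counting interval 0.46 to 0.84) and Axl by 0.12 (fold 0.92, 0.86 to 0.98). Lrp1 was higher by 0.42 (fold 1.38, 1.31 to 1.45) and Cd36 by 0.32 (fold 1.26, 1.17 to 1.35). Mertk (0.06), Stab2 (0.04), Stab1 (0.03), Msr1 (0.05), Timd4 (-0.18) and Gas6 (0.28) did not exceed counting error.

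In MA9/FE against WT/FE macrophages, again 0 of 10 members were called, against 2.93% of 16566 genes called higher and 1.64% called lower, and the median change was 0.01. Marco was higher by 0.89 (fold 2.0, counting interval 1.67 to 2.41), as was Gas6 by 0.84 (27 against 78 reads, fold 3.06, 1.95 to 4.94), and Cd36 by 0.27 (fold 1.21, 1.12 to 1.31). Lrp1 was lower by 0.52 (fold 0.68, 0.65 to 0.71) and Mertk by 0.31 (fold 0.80, 0.74 to 0.86). Axl (0.00), Timd4 (0.02), Stab2 (-0.05), Msr1 (-0.02) and Stab1 (0.09) did not exceed counting error. Marco and Lrp1 therefore differed in sign between the comparisons without and with iron.

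With the 4 macrophage libraries fitted together, 0 of the 10 members were called for leukemia by limma and 1 had an unadjusted p under 0.05, against 5.76% of the 16264 genes tested that were called. That member was Gas6, at 0.56 ± 0.18 with a limma adjusted p of 0.088. The other 9 estimates lay between -0.13 (Mertk) and 0.29 (Cd36). None of the alternatives run for this fit called a member, and at a share of 5.76% 0 calls among 10 genes is no result about them. Neutrophil markers were 8 of 9 called higher for leukemia in the same fit, and erythroid markers 5 of 6.

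The last contrast set leukemia cells against macrophages of the same condition. Cell type and labelled tissue change together here, BM for the leukemia cells and spleen for the macrophages, and cannot be told apart. In MA9 leukemia cells 6 of 10 members were called lower than in MA9 macrophages, against 12.7% of 17043 genes tested, and 0 were called higher, against 7.34%. These were Cd36 (-4.75), Mertk (-2.98), Axl (-2.93), Stab2 (-1.43), Marco (-1.43) and Timd4 (-1.38). In MA9/FE cells 7 of 10 were called lower, against 13.2% of 16840 genes, and 0 higher, against 9.60%: the same 6, at -4.72 for Cd36, -3.76 for Mertk, -4.09 for Axl, -1.92 for Stab2, -2.77 for Marco and -2.44 for Timd4, and Gas6 at -1.55. The median change was -1.40 and -2.18, against -0.01 and -0.03 for all genes tested.

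In reads, which are free of the pseudocount, Mertk was 36.8 times higher in MA9 macrophages than in MA9 leukemia cells (counting interval 23.4 to 61.5) and 65.4 times higher in the iron pair (41.7 to 109). Axl was 11.04 times (9.46 to 12.96) and 27.9 times higher (23.5 to 33.5). For Stab2 the ratio was 8.37 (6.19 to 11.6) and 9.70 (7.61 to 12.5), and for Marco 11.2 (5.18 to 28.9) and 14.1 (9.57 to 21.5). Cd36 was 312 times higher (143 to 853) without iron, and 1669 times with iron, where its 1 read in leukemia cells gave an interval of 299 to 65950. Timd4, at 4 and 3 reads in leukemia cells, was 18.6 times (6.93 to 70.1) and 63.4 times higher (21.3 to 310.5). Gas6 was 6.34 times higher (2.42 to 20.96) without iron. With iron it was at least 29.4-fold higher in macrophages, set against the 3 reads that its count of 0 allows in that leukemia library, and the exact counting interval, which also covers the error of the 78 macrophage reads, starts at 23.4.

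Stab1 and Msr1 were the members that exceeded counting error in favour of leukemia cells. For Stab1 the fold was 5.73 (3.80 to 8.95) in the pair without iron and 6.80 (4.64 to 10.3) with iron, and for Msr1 2.202 (1.49 to 3.32) and 1.73 (1.22 to 2.48). Neither reached a fold of 2 on the scale of FPKM + 1. Stab1 overlaps Nt5dc2 on the opposite strand, and here too it is not known whether strand was used in counting. Lrp1 was lower in MA9 leukemia cells than in MA9 macrophages by 0.42 (fold 0.72, 0.69 to 0.76), and in the iron pair its fold was 0.99 (0.95 to 1.04). The joint limma fit over the 4 libraries of leukemic mice called 8 of 10 members for cell type, against 42.1% of 16290 genes: Cd36 (-4.73 ± 0.19), Axl (-3.49 ± 0.29), Mertk (-3.36 ± 0.25), Marco (-2.09 ± 0.33), Timd4 (-1.91 ± 0.26), Stab2 (-1.67 ± 0.20), Gas6 (-1.07 ± 0.22) and Stab1 (0.82 ± 0.13). The limma adjusted p of these 8 ran from 1.0e-05 for Cd36 to 0.0096 for Gas6, and was 0.060 for Msr1 and 0.39 for Lrp1. In this fit the MA9 and MA9/FE libraries of a cell type stood in for replicates. On simulated data it called more unchanged genes than its threshold states, and with no minimum of reads it called 4 members. The red pulp markers had medians of -2.75 and -3.44 in the 2 comparisons, and their part in the members' values was not tested.

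**Figure D5:**
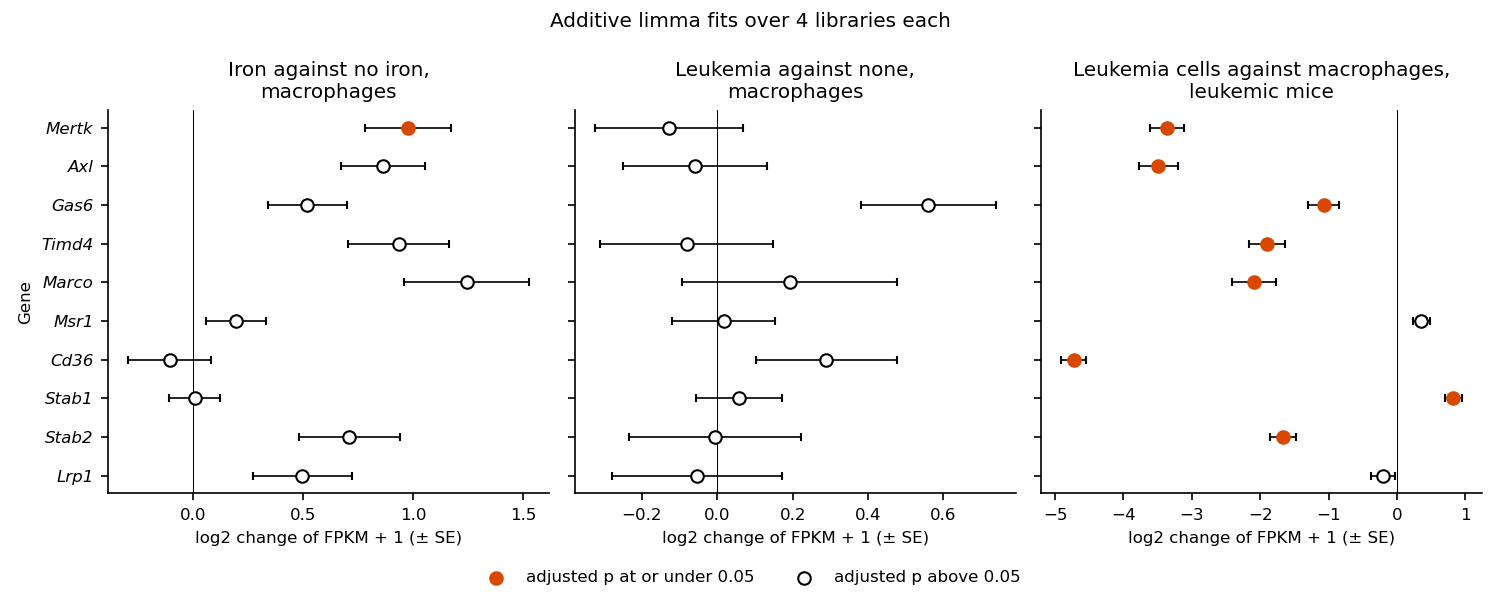
log2 change of FPKM + 1 ± SE (horizontal axes) of the 10 genes for iron and for leukemia in the 4 macrophage libraries, and for leukemia cells against macrophages in the 4 libraries of leukemic mice. Filled points have a limma adjusted p at or under 0.05: Mertk for iron, none for leukemia, and 8 genes for cell type.

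Within the leukemia cells 7 members had enough reads to be tested for iron, and 0 were called, against 0.435% of 15412 genes called higher and 0.428% called lower. At these shares 0 calls among so few genes is no result about them. Lrp1 was higher by 0.43 (2722 against 3729 reads, fold 1.39, counting interval 1.33 to 1.46). Marco, at 7 and 28 reads, was higher by 0.60 (fold 4.07, 1.74 to 11.03). Stab1 (fold 1.39, 1.13 to 1.70) and Stab2 (1.57, 1.08 to 2.30) were also above counting error, and Axl was lower by 0.24 (fold 0.76, 0.61 to 0.96). Mertk (0.00) and Msr1 (0.09) did not exceed counting error, and Cd36, Gas6 and Timd4 stayed under 10 reads in both libraries.

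Of 110 other genes of the pathway, 99 were tested in each macrophage comparison. With iron 2 were called higher in the WT pair and 3 in the MA9 pair, none lower, where 0.728% and 1.20% of all genes were called higher, with medians of 0.04 and 0.06. Among them the mannose receptor gene Mrc1 was called in both pairs and Spic in the MA9 pair. Nr1h3, which encodes LXR alpha, was at 8.21, 13.4, 11.2 and 18.8 FPKM, and Pparg at 2.43, 5.68, 4.48 and 7.37 FPKM. Their limma adjusted p for iron was 0.27 and 0.29. By list, 14 of 16 tested regulators lay above 0 in the WT pair and 10 of 16 in the MA9 pair.

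In the 4 macrophage comparisons no gene of the downstream machinery was called, but with 0.543% to 3.79% of all genes called in a given direction, 0 calls among so few genes is no result about them. The 17 tested genes that link receptors to the cytoskeleton, such as Rac2, Rhog and Cdc42, had medians between -0.11 and 0.02, and the 17 tested genes of LC3-associated phagocytosis and phagosome maturation had medians between -0.07 and 0.17. In WT/FE against WT the changes of largest size in these lists were -0.21 for Cdc42 and 0.49 for Rab20. Of the other phosphatidylserine receptors and bridging proteins 14 were tested and 0 called in each macrophage comparison. Of that group Havcr2, a further phosphatidylserine receptor, was at 45.6, 42.3, 33.2 and 29.5 FPKM and Tyro3, the relative of Axl and Mertk, at 0.04 to 0.21 FPKM. Among receptors for signals released by dying cells and related modulators 3 of 16 were called higher in MA9 against WT macrophages, against 3.79% of all genes tested. They were Fpr2, a formyl peptide receptor (1.47), the sphingosine phosphate receptor gene S1pr2 (1.33) and Anxa1, which encodes annexin A1 (1.16). The neutrophil markers summed to 3.70 FPKM in WT and 1788 FPKM in MA9 macrophages, and the part of other cells in these 3 changes was not tested.

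In leukemia cells against macrophages the other pathway genes went both ways, with 12 called higher and 19 lower of 101 tested without iron and 15 and 21 with iron. Of all genes tested, 7.34% were called higher and 12.7% lower without iron, and 9.60% and 13.2% with iron. Olr1, a receptor for oxidized LDL, was at 16.3 and 14.2 FPKM in leukemia cells and at 0.22 to 0.81 FPKM in macrophages. Without iron Havcr2 was lower by 4.45 and the sphingosine receptor gene S1pr1 by 5.24.

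Genes whose log2(FPKM + 1) most resembled a member's over the 6 libraries were sought among 5346 genes with a range of at least 1. The correlations describe 6 points that fall into 2 kinds of cell. Nearest to Mertk were Hes5, Paqr9 and Pla2g7 (Pearson r of 0.9996, 0.9991 and 0.9985), to Axl Acvrl1, A930005H10Rik and Spic, to Timd4 Pcolce2, C6 and Slc40a1, and to Stab2 Pigz, Cmklr1 and Slco2b1. Marco was nearest to Ghdc (r = 0.995), Trf and Tmem86a. Cd36 was matched at an r of 0.99 or more by 302 genes, led by Pou2af1, Xcr1 and Csrnp1. Lrp1 and Gas6 had no gene at that level and Msr1 had 1, and the gene nearest to Lrp1 was Tlr8 at 0.971. Stab1 was nearest to Gm1110, Ripk4 and Rbp4, Msr1 to Mblac1, Hgsnat and Stard8, and Gas6 to Ighv3-4 (0.988), Mmp27 and Rab20.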

How the data were processed

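RNA-seq of sorted cells was read from 6 libraries (4 of macrophages, 2 of leukemia cells), grouped by the sample labels. The authors deposited FPKM per Ensembl gene. A service provider sequenced the total RNA. The submitters' processing notes name Bowtie2 2.2.5, RSEM and mm10, and the annotation is not given in the sources used here. FPKM multiplied by exon length (GENCODE M21, GRCm38, 54495 genes) were whole multiples of 1 step within 0.05 reads for at least 96.8% of values above 0, which gave reads and depth. Whole multiples are what counting whole reads gives and estimated counts need not, so how RSEM was used is unclear, and every read and interval rests on this recovery. Depth was 92.0% of the summed reads in MA9/FE macrophages and 98.4% to 100.7% in the other libraries.

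For each pair of libraries FPKM were scaled by TMM (coded by hand), a gene with at least 10 reads in one of the pair was tested, and it was called at a fold of 2 on log2(FPKM + 1), without a test because each condition has 1 library. Values called in this way compare libraries, not conditions. Additive fits over 4 libraries used limma 3.58.1 (R 4.3.3, trend) on log2(FPKM + 1) and kept a gene where 2 or more libraries held 10 reads. The p-values were adjusted over all genes (Benjamini-Hochberg). Steps were tested on simulated data, where the fold and reads calls and limma recovered most changed genes, and limma for cell type called more unchanged genes than its threshold states. The planted changes were larger than a fold of 2 and lay in well covered genes. The simulation of the fold and reads calls held counting noise only, and that of limma planted no change with iron. Recovery there thus says little about changes near a fold of 2, genes with few reads or the iron term. Intervals are exact 95% Poisson or Clopper-Pearson and cover counting error only, and at this depth the unknown spread between mice limits precision.

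Members and gene lists were chosen with earlier results of these data known. All 10 members were named, of each other list at most the 3 genes of largest change per comparison with at least 50 reads, and for each member the 3 most similar genes. Tyro3, Lyve1, Dcn and Lum fall outside this rule and were named after their values were seen. Alternatives were other scalings, a pseudocount of 0.1, no or 50 minimum reads, removal of the length trend, an exact binomial test of the reads and values relative to the red pulp list. Promoter windows come from RefSeq. Results for 2 listed genes are not reported here.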

Additional observations from a re-analysis of the deposited data

Results flagged for a closer look

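Marco and Lrp1 went opposite ways with leukemia without and with iron, each beyond counting error. The log2 change of Marco was -0.50 in MA9 against WT macrophages and 0.89 in MA9/FE against WT/FE macrophages. That of Lrp1 was 0.42 and -0.52. With 1 library per condition these differences between the comparisons were not tested, and the comparisons rest on 4 single libraries.

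Axl went opposite ways with iron in macrophages and in leukemia cells. Its log2 change was 0.80 in WT/FE against WT macrophages and 0.96 in MA9/FE against MA9 macrophages, and -0.24 in MA9/FE against MA9 leukemia cells, where it had 177 and 133 reads. These differences were not tested either.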

How the results depend on the processing

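Each library stands alone, so no spread between mice is known, no library could be left out of a pair, and depth limits every member but Axl and Lrp1 in the libraries where it holds under 100 reads. No paired analysis was possible because each condition has 1 library. Of the members' log2 changes 393 alternatives stayed within counting error of the reported value and 39 moved beyond it, and none of the called changes reversed in sign. With a pseudocount of 0.1 the number of members called was 3 in WT/FE against WT macrophages, 1 in MA9/FE against WT/FE macrophages and 1 in MA9/FE against MA9 leukemia cells. Relative to the red pulp list, chosen after seeing the data, it was 0 in WT/FE against WT and 1 in MA9/FE against MA9 macrophages, and with the length trend removed it was 1 in the latter. Limma called for iron 0 members with unscaled FPKM, 0 with median of ratios, 0 with no minimum of reads and, at a pseudocount of 0.1, 3. With no minimum it called 4 for cell type, where 27484 genes were tested in place of 16290. For these changes the cause was not tested. Over all genes, removal of the length trend moved the calls from 486 higher and 272 lower to 330 and 404 in MA9/FE against WT/FE macrophages, and from 198 and 208 to 128 and 298 in MA9/FE against MA9 macrophages. Relative to the red pulp list the split went from 122 higher and 91 lower to 21 and 3957 in WT/FE against WT macrophages and from 198 and 208 to 30 and 4629 in MA9/FE against MA9 macrophages, where the median of all genes then lay at -0.87 and -0.82.

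Counts over all genes moved as well. At a pseudocount of 0.1 the calls went from 213 to 784 in WT/FE against WT, from 795 to 1980 in MA9 against WT, from 758 to 2081 in MA9/FE against WT/FE and from 406 to 1498 in MA9/FE against MA9 macrophages, from 133 to 630 for iron in leukemia cells, and from 3407 to 5808 and 3832 to 6497 in leukemia cells against macrophages. With no minimum the iron calls became 481, 731 and 375 in WT macrophages, MA9 macrophages and leukemia cells, and with a minimum of 50 reads 116, 234 and 60. The exact test of the reads gave 81 for iron in leukemia cells. Limma's calls for iron went from 57 to 106 at a pseudocount of 0.1, and with no minimum to 0 (927 at an unadjusted p under 0.05), those for leukemia from 937 to 4 and those for cell type from 6854 to 3500.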
